A study of Mus musculus with 12 samples.

Results

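The cytosolic ribosomal protein genes encode the proteins of the large (60S) and small (40S) subunits of the ribosome that translates nuclear-encoded mRNAs. Members were chosen by name: symbols that start with Rpl or Rps followed by a number and at most 1 of the letters a, l or x, together with Rpsa, Rplp0, Rplp1 and Rplp2, with numbered copies of a symbol summed and names containing "-ps" left out. The rule found 83 genes among 46103 listed, 51 of the large and 32 of the small subunit. Of these, 78 reached 1 RPKM (reads per kilobase of exon, scaled to the reads of the library) in at least 3 libraries and were tested, among 10072 genes tested. Rpl10l, Rpl6l and Rps4l were listed at 0 in all 12 libraries, and Rpl3l and Rpl39l were above 0 but too low to test.

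The cells came from a mouse model of chronic myeloid leukemia (CML). Bone marrow cells of 5FU-treated mice that carry a Vav1-Cre-regulated G0 marker (G0M, the fluorescent protein mVenus fused to a p27 mutant that does not inhibit Cdk) were transduced with a retrovirus for BCR-ABL1 and GFP, and transferred into lethally irradiated recipients. All 4 groups were BCR-ABL1+ KSL cells (lineage-negative, Sca1+, c-Kit+) from C57BL/6 mice that expressed CD27, sorted from bone marrow and spleen at 100 cells a library. DP cells were G0M+ and SP cells were G0M- from vehicle-treated mice, and IMDP (G0M+) and IMSP (G0M-) cells came from mice given imatinib, a BCR-ABL1 kinase inhibitor, once a day by oral gavage. Each group had 3 libraries. The labels do not say whether these were separate mice, so p-values measure only the spread between these libraries. Mice were female and 6 to 12 weeks old, and irradiated recipients keep some host cells.

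Each ribosome holds 1 copy of most of these proteins, and cells make them in matched amounts, so their mRNAs are abundant and tend to move together. Many of the mRNAs start with a cytosine followed by a run of pyrimidines, the 5′ terminal oligopyrimidine (TOP) motif, through which mTORC1 and LARP1 control their translation. Slowly cycling hematopoietic stem cells are known for a low rate of protein synthesis, and CML cells depend on kinase signalling that feeds into mTORC1.

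To see the motif in the members the results turn on, 30 bases around the RefSeq start site (GRCm38.p6) are given, 15 before the start and 15 from it on, in the direction of transcription. Capitals mark a C followed by at least 4 further C or T that begins within 5 bases of the start.
Rps27: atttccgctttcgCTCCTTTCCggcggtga
Rps9: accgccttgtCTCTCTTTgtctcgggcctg
Rps6: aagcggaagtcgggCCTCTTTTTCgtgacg
Rps2: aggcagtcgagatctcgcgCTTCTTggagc
Rps27l: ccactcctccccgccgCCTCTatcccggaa
Rpl37: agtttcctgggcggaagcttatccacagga
Rpl41: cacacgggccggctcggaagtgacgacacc
Rpl11: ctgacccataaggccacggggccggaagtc

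These windows lie at chr3:90213634-90213663 (Rps27, minus strand), chr7:3704026-3704055 (Rps9, plus), chr4:86857353-86857382 (Rps6, minus), chr17:24720048-24720077 (Rps2, plus) and chr9:66946071-66946100 (Rps27l, plus, the first of 2 listed starts). Those without the tract lie at chr15:5116598-5116627 (Rpl37, plus), chr10:128549154-128549183 (Rpl41, minus) and chr4:136053379-136053408 (Rpl11, minus). A RefSeq start was at hand for 61 members, and 29 of them (47.5%) had the tract on the transcribed strand, the only one searched, against 21.2% of 27025 genes. The tract stood in 17 of 38 large subunit and 12 of 23 small subunit genes. The second Rps27l start and the windows of Rpl37, Rpl41 and Rpl11 held no such run, which says only that these letters are not in these windows. The 83 genes lie on 19 chromosomes.

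The libraries held 11367631 to 20573779 reads, of which 25.9% to 37.1% fell on listed features. The RPKM steps gave back whole reads for all 17735 features above 0. Library totals set the RPKM, while the summed RPKM over all features ranged from 82832 (IMDP replicate 2) to 133620 (IMSP replicate 1). All 3 IMDP libraries lay below the 9 others in that sum. Each level is therefore given as deposited and, for directions, also after scaling each library to the same summed RPKM. Summed RPKM of 6 cycling markers, among them Mki67 and Top2a, was 33.2 to 76.2 in DP, 197 to 218 in SP, 19.7 to 35.6 in IMDP and 188 to 263 in IMSP. The 8 LSK markers were each above 0 in at least 1 of the 12 libraries. Their sum was 94.8 to 123 in DP, 73.3 to 90.4 in SP, 111 to 161 in IMDP and 115 to 119 in IMSP. Marker sums of other cell types moved with the groups in part. Every gene of the lists for mast cells, erythroid cells, neutrophils and monocytes (7 each), macrophages (6) and megakaryocytes (4) was detected in at least 1 library. The mast cell sum was 76.3 to 318 in DP, 10.5 to 23.0 in SP, 14.9 to 170 in IMDP and 7.92 to 24.4 in IMSP, so that DP lay above SP. The erythroid sum also lay above SP in DP (204 to 263 against 53.9 to 145), and was 56.8 to 378 in IMDP and 9.43 to 71.6 in IMSP, which overlapped. For neutrophil and monocyte genes the sums were 72.6 to 1490 in DP and 399 to 2736 in SP, which overlapped, and 76.6 to 300 in IMDP and 530 to 2330 in IMSP, which did not. The macrophage sum was 3.34 to 13.2 in DP, 2.06 to 4.57 in SP, 10.1 to 13.6 in IMDP and 3.05 to 8.89 in IMSP. Megakaryocyte genes summed to 23.4 to 60.8 in DP, 10.9 to 34.5 in SP, 11.0 to 33.2 in IMDP and 6.45 to 26.9 in IMSP. Of the T and NK cell list 3 of 4 genes were detected. They summed to 81.6 to 172 in DP, 91.1 to 265 in SP, 25.1 to 81.7 in IMDP and 59.9 to 165 in IMSP. The B cell sum, with 4 of 5 genes detected, was 1.76 to 4.27 over the groups. Their part in the results was not tested.

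The members as a whole made up 16.06%, 16.11% and 16.25% of all RPKM in the 3 DP libraries and 15.02%, 14.91% and 14.23% in the SP libraries. Under imatinib the shares were 15.26%, 15.47% and 15.74% in IMDP and 15.05%, 13.86% and 15.10% in IMSP. G0M+ libraries thus lay above G0M- libraries of the same treatment without overlap, with means of 16.1% ± 0.101 against 14.7% ± 0.428 (vehicle) and 15.5% ± 0.239 against 14.7% ± 0.705 (imatinib, SD, n = 3). In the deposited unit the order was different. Summed member RPKM was 19607, 17936 and 17104 in DP, 17972, 18562 and 15860 in SP, 15801, 12811 and 13978 in IMDP, and 20111, 16618 and 17373 in IMSP. The IMDP libraries lay below all IMSP and DP libraries, while DP and SP overlapped. Without the 100 most abundant other genes in the sum, a choice made after seeing the data, IMDP (18.1% to 18.6%) and IMSP (16.5% to 18.3%) overlapped. By reads in place of RPKM the members took 4.61% to 4.83% in DP, 4.12% to 4.54% in SP, 4.14% to 4.31% in IMDP and 3.95% to 4.50% in IMSP, so only the vehicle groups stayed apart. Fewer cells of a type and less RNA per cell cannot be told apart in these libraries.

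**Figure D1:**
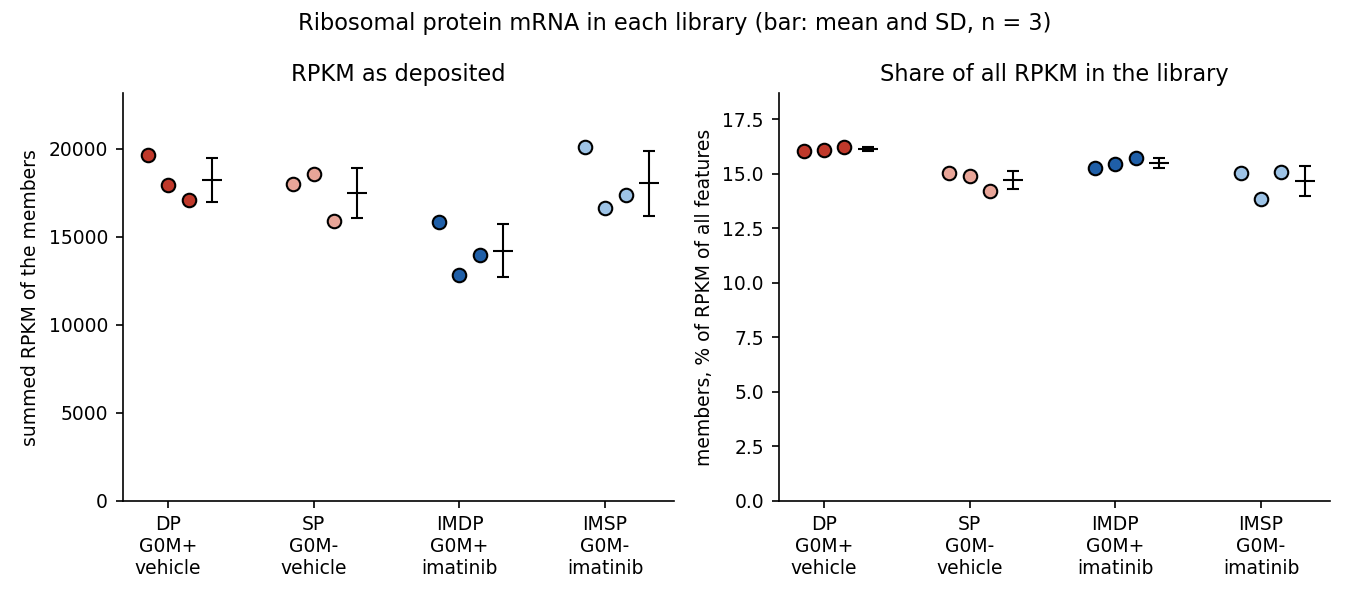
Each point is 1 library, with the summed RPKM of the 83 members on the left and their percentage of the RPKM of all features on the right, and the bars give the mean and SD of 3 libraries. IMDP is lowest on the left, at 12811 to 15801, whereas on the right IMDP (15.26% to 15.74%) lies above IMSP (13.86% to 15.10%).

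Levels differed widely between members. Among tested members the mean over 12 libraries ran from 1.19 RPKM (Rpl32l) to 858 RPKM (Rps12), with a median of 204 RPKM, 171 for the large and 221 for the small subunit, and 67 of 78 were above 50 RPKM. Rps12, a small subunit protein, had 1015, 917 and 873 RPKM in DP, 953, 1006 and 826 in SP, 710, 571 and 670 in IMDP, and 992, 792 and 974 in IMSP. Rpl41, the smallest ribosomal protein, came next. IMDP was lowest by mean in both genes, as deposited.

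The 3 lowest tested members were Rpl32l, Rps6 and Rpl21. Rpl32l, which GENCODE lists as a processed pseudogene, had only 2 to 23 reads a library. Rps6, the target of S6 kinase in the small subunit, had 7.02 to 12.5 RPKM from 129 to 272 reads. Its groups overlapped, and no contrast called it as deposited or scaled to the same summed RPKM. In Rps6, 84.9% of 31-base words of the principal GENCODE transcript also occurred in transcripts of other genes. That was so for over 50% of words in 46 of 80 members with such a transcript, with a median of 54.3%, and how reads shared between copies were counted is not given in the sources used here. Such levels are uncertain. Of 301 listed Rpl or Rps names with "-ps", only 2 were above 0. RPKM also divides by the exon length used, which came out between 346 bases (Rps27) and 5136 bases (Rps15a) among tested members. By reads, the order was led by Rpsa, the laminin-receptor protein of the small subunit.

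**Figure D2:**
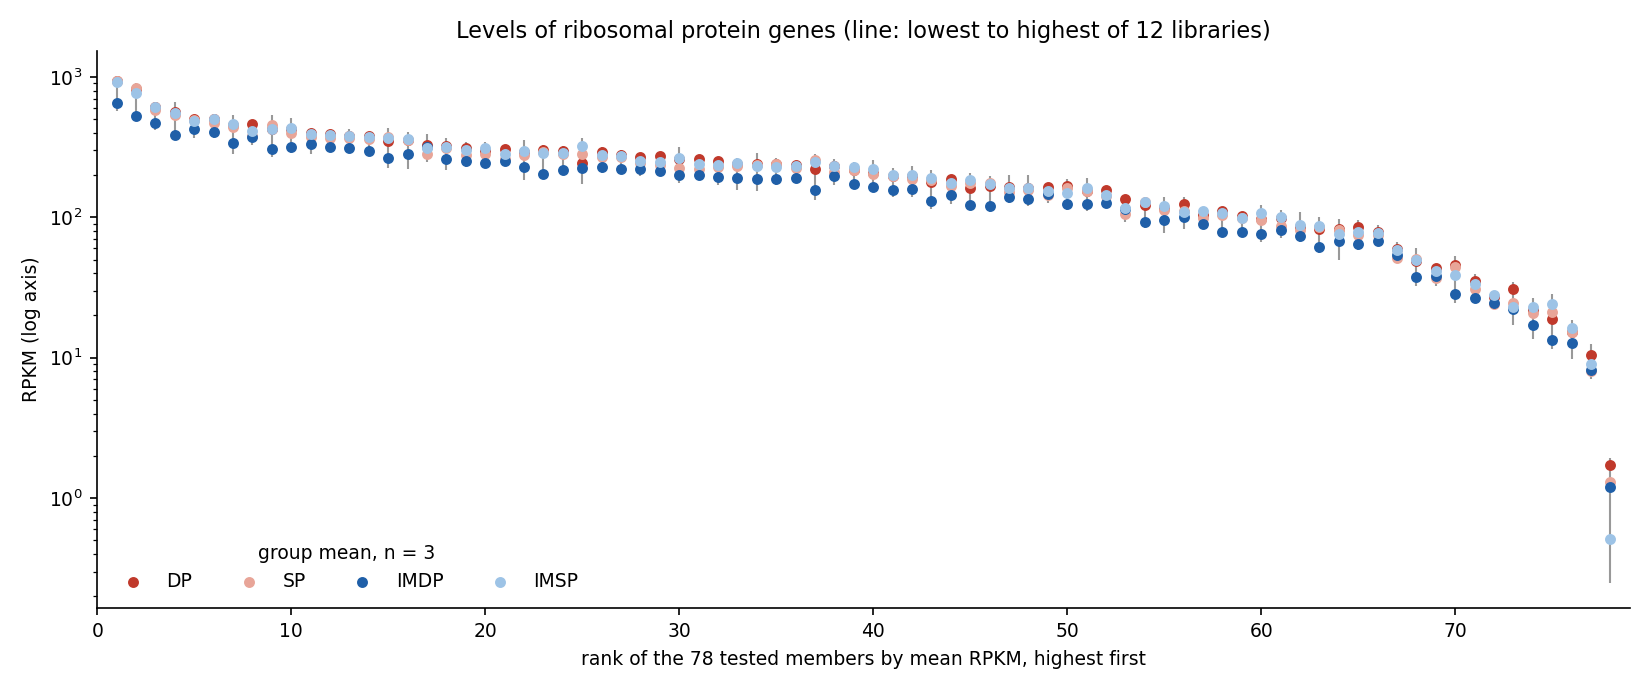
Group means (n = 3) of the 78 tested members in RPKM on a log axis, ordered from the highest to the lowest mean over 12 libraries, with a line from the lowest to the highest library. Rps12 is highest at a mean of 858 RPKM and Rpl32l lowest at 1.19, and most IMDP points are the lowest of their member, as deposited.

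To ask whether quiescent G0M+ cells differed from G0M- cells without drug, DP was compared with SP. No member passed the threshold (limma, adjusted p under 0.05 over all genes tested), where 0.288% of all genes were called higher and 1.98% lower. At an unadjusted p under 0.05 only Rpl37 was higher and none lower, against 5.68% and 7.51% of all genes. With limma-voom on recovered reads 0 members were called (0.645% of genes called higher, 2.38% lower), with 12 higher and none lower at an unadjusted p under 0.05, against 8.35% and 8.13% of genes. The members' median difference was 0.07 on the log2 scale, beside -0.02 over all genes tested, and 62 of 78 fitted differences were above 0. With 1 library left out that median ran from 0.0084 (without SP replicate 3) to 0.13 (without SP replicate 2). It was 0.14 beside 0.05 over all genes after scaling to the same summed RPKM, and 0.11 beside 0.02 after scaling to the same median. With the same summed member RPKM it was 0.01 beside -0.07. In 12 of 78 members (15.4%) all DP libraries lay above all SP libraries, against 9.68% of genes tested, and in none below, against 12.7%. After scaling to the same summed RPKM, 40 of 78 (51.3%) lay above without overlap, against 11.1%, and in none below, against 10.9%. There 1 member, Rpl37, rose (0.42 ± 0.07, limma adjusted p = 0.00906), where 0.357% of genes were called higher and 2.10% lower, while with library-number neighbours as a block in addition 10 rose, among them Rps27, Rps9 and Rpl22 (8.03% of genes called higher, 5.90% lower). The block alone, on the deposited scale, called Rpl37 higher (4.17% of genes called higher, 5.56% lower). At an unadjusted p under 0.05 it gave 7 members higher and none lower, against 13.0% and 14.4% of genes.

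The same question under imatinib compared IMDP with IMSP. Here 22 of 78 members (28.2%) fell and none rose, against 23.3% of all genes called lower and 2.37% called higher, so the share was near the background. By subunit 15 of 47 large and 7 of 31 small subunit genes fell. The median difference was -0.32, beside -0.25 over all genes tested. After scaling to the same summed RPKM the direction turned, for all genes as for the members. There 8 members (10.3%) rose and none fell, near the 9.58% of all genes called higher, with 6.14% called lower. The member median was 0.11 beside 0.16 over all genes. The member median minus that of all genes was -0.063 as deposited, -0.052 after this scaling, and between these on the other scales tried. Scaling to the same median called 0 members (6.29% of genes called higher, 9.18% lower), with 2 higher and 6 lower at an unadjusted p under 0.05, against 16.1% and 17.5% of genes. With limma-voom and TMM (trimmed mean of M-values) scaling 0 members were called (7.07% higher, 8.23% lower), with 2 higher and 6 lower at an unadjusted p under 0.05, against 16.8% and 16.6% of genes. With library-number neighbours as a block, 51 members fell as deposited (35.9% of genes called lower, 8.22% higher), and 14 rose and 2 fell after scaling (27.4% and 12.8%). As deposited, leaving out IMSP replicate 1 left 1 fall (8.46% of genes called lower), IMDP replicate 2 left 4 (10.8%) and IMDP replicate 3 left 6 (14.0%), while 43 members fell without IMDP replicate 1 (27.8%). After scaling, in place of 8 rises there was 1 without IMDP replicate 3 or IMSP replicate 1 (4.08% and 1.89% of genes called higher), 3 without DP replicate 2, IMDP replicate 2 or IMSP replicate 3 (7.53%, 2.67% and 3.22%), 4 without SP replicate 1 or IMSP replicate 2 (7.69% and 15.5%), and 5 without SP replicate 3 or IMDP replicate 1 (8.53% and 6.71%), the last with 1 fall.

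Rps27l, a paralogue of Rps27 and a p53 target, had the largest fall among the calls. Its RPKM was 16.4, 11.6 and 12.2 in IMDP and 26.3, 26.6 and 19.8 in IMSP, with no overlap, and the DP (13.3 to 24.6) and SP (16.02 to 28.3) libraries overlapped. The fitted difference IMDP minus IMSP was -0.85 ± 0.26 (SE, limma adjusted p = 0.0309), and -0.43 (adjusted p = 0.137) after scaling to the same summed RPKM. Rps2, at the mRNA entry of the small subunit, had 201, 139 and 133 RPKM in IMDP against 281, 229 and 230 in IMSP. It fell by 0.67 on the log2 scale (SE 0.18, adjusted p = 0.0189), with a difference of -0.24 (adjusted p = 0.108) after that scaling. With the library-number block added to that scaling Rps27l and Rps2 passed as the 2 members that fell (adjusted p = 0.0233 and 0.0273). Rpl11, which binds MDM2 as part of the 5S particle, had 130, 112 and 128 RPKM in IMDP against 209, 175 and 168 in IMSP, a difference of -0.57 ± 0.15 (adjusted p = 0.0182) that was -0.15 (adjusted p = 0.257) after scaling. In all 3 genes IMDP libraries lay below every IMSP library, as in 38 of 78 members (48.7%) against 32.8% of genes tested, and no member lay above without overlap, against 6.21%. After scaling to the same summed RPKM 21 of 78 (26.9%) lay above, against 24.5%, and 2 (2.56%) below, against 12.6%.

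Rpl5, the partner of Rpl11 in the 5S particle, had 158 to 230 RPKM in IMDP and 221 to 266 in IMSP, which overlapped, and its difference of -0.37 ± 0.15 missed the threshold (adjusted p = 0.0952). Among the stalk proteins, which recruit translation factors to the large subunit, Rplp1 fell. It had 412, 377 and 371 RPKM in IMDP and 666, 457 and 541 in IMSP (difference -0.50 ± 0.14, adjusted p = 0.0230). Rplp0 (-0.33 ± 0.12, adjusted p = 0.0544) and Rplp2 (-0.32 ± 0.18, adjusted p = 0.208) did not pass. Rpsa fell (-0.48 ± 0.15, adjusted p = 0.0419). Rps19, the gene mutated most often in Diamond-Blackfan anemia, had 83.6 to 94.5 RPKM in IMDP and 99.4 to 119 in IMSP, a difference of -0.30 ± 0.12 (adjusted p = 0.0851). Rpl10, Rpl22, Rpl38, Rps27a, a ubiquitin fusion, and Rps4x, the X-linked small subunit protein, had differences of -0.35, -0.13, -0.15, -0.27 and -0.28, none past the threshold, and after scaling to the same summed RPKM Rpl22 rose (0.30, adjusted p = 0.0415). Rpl3l had at most 0.185 RPKM, and Rpl39l was above 0 only in DP replicate 3 (3.54 RPKM) and SP replicate 1 (3.67 RPKM).

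Averaged over both treatments, with 6 G0M+ against 6 G0M- libraries, 5 members fell and none rose (Rps2, Rpl11, Rpl8, Rpl41 and Rpl30), against 21.0% of genes called lower and 5.32% higher. Rps2 fell by 0.44 (SE 0.12, adjusted p = 0.0245), Rpl11 by 0.36 (SE 0.11, adjusted p = 0.0302) and Rpl8, a protein at the peptidyl transferase center, by 0.29 (SE 0.09, adjusted p = 0.0308). The members' median was -0.12, beside -0.13 over all genes. Scaling to the same summed RPKM turned the direction here as well, with 23 members higher and none lower (14.8% of genes called higher, 8.90% lower). With 1 library left out on that scale, the rises ran from 12 without IMDP replicate 3 (10.9% of genes called higher) to 28 without IMDP replicate 1 (13.4%), the latter with 1 fall. Without DP replicate 2 or 3, SP replicate 2, IMDP replicate 2 or 3, or IMSP replicate 1, 0 members were called as deposited (13.0% to 16.2% of genes called lower), and 1 without SP replicate 1 (15.4%), whereas 9 fell without DP replicate 1 (22.9%), 14 without IMDP replicate 1 (25.9%) and 7 without IMSP replicate 2 (20.6%), where 1 rose (8.48%). The library-number block gave 23 falls as deposited (33.4% called lower, 13.4% higher), and 33 rises and 2 falls (Rps27l and Rps2) after scaling (30.6% and 15.8%).

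**Figure D3:**
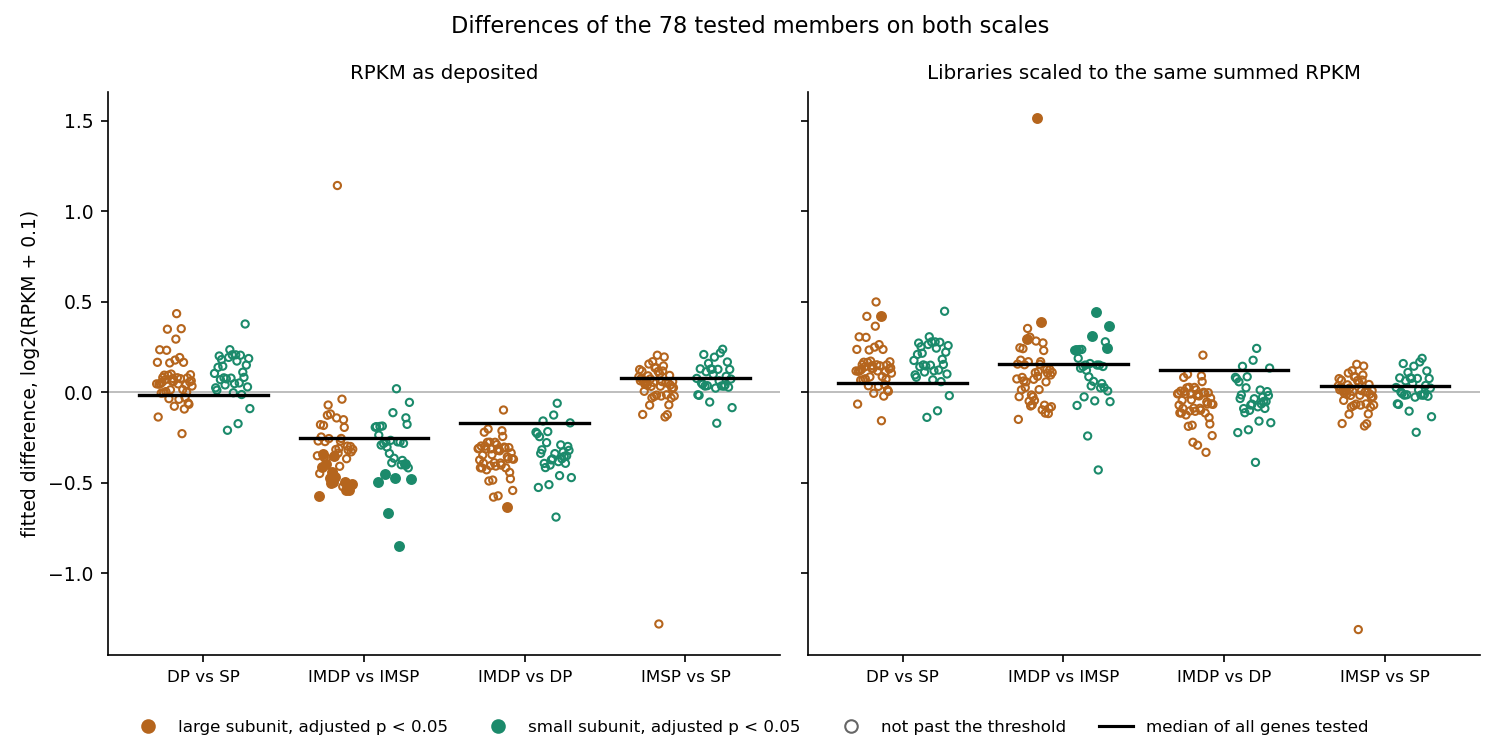
Each circle is 1 of 78 tested members, with its fitted difference on the log2(RPKM + 0.1) scale for 4 contrasts, filled where the limma adjusted p is under 0.05; black lines mark the median over all genes tested. In IMDP against IMSP 22 circles are filled below 0 on the left and 8 above 0 on the right, and the members' medians are -0.32 and 0.11.

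The ratio of 2 genes of the same library does not depend on how that library is scaled. Rpl37, a zinc-binding protein of the large subunit, Rps9 and Rps27 were chosen as numerators after their values were seen, and Rpl41, Rps2 and Rps27l as denominators were among the members with the largest falls. The order of the groups in these ratios therefore follows in part from the choice, is given as a description and supports nothing, and no test is given. Rpl37 had 145, 134 and 126 RPKM in DP and 114, 112 and 92.2 in SP, and 129, 104 and 110 in IMDP and 133, 107 and 112 in IMSP. Rpl41 had 872, 812 and 762 RPKM in DP, 900, 881 and 722 in SP, 563, 510 and 501 in IMDP, and 810, 751 and 727 in IMSP. The ratio of Rpl37 to Rpl41 was 0.166 ± 0.000781 in DP and 0.127 ± 0.00049 in SP, and 0.217 ± 0.0132 in IMDP and 0.154 ± 0.0108 in IMSP (SD, n = 3). All 6 G0M+ libraries, at 0.165 to 0.229, lay above all 6 G0M- libraries, at 0.127 to 0.164. The 3 IMDP libraries also lay above the 3 DP libraries.

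The ratio of Rpl37 to Rps2 showed the same order of populations. It was 0.556 to 0.658 in DP and 0.391 to 0.456 in SP, and 0.642 to 0.831 in IMDP and 0.469 to 0.486 in IMSP. Rps9 to Rps2 ran from 0.649 to 0.849 in DP against 0.516 to 0.635 in SP, and from 0.802 to 1.17 in IMDP against 0.590 to 0.680 in IMSP. Between the paralogues Rps27 and Rps27l the ratio was 14.1 to 25.5 in DP and 10.7 to 15.6 in SP, which overlapped, and 21.4 to 25.9 in IMDP and 10.0 to 16.2 in IMSP, which did not. Rpl37 and Rpl41 had 1057 to 2034 and 3266 to 8313 reads a library.

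**Figure D4:**
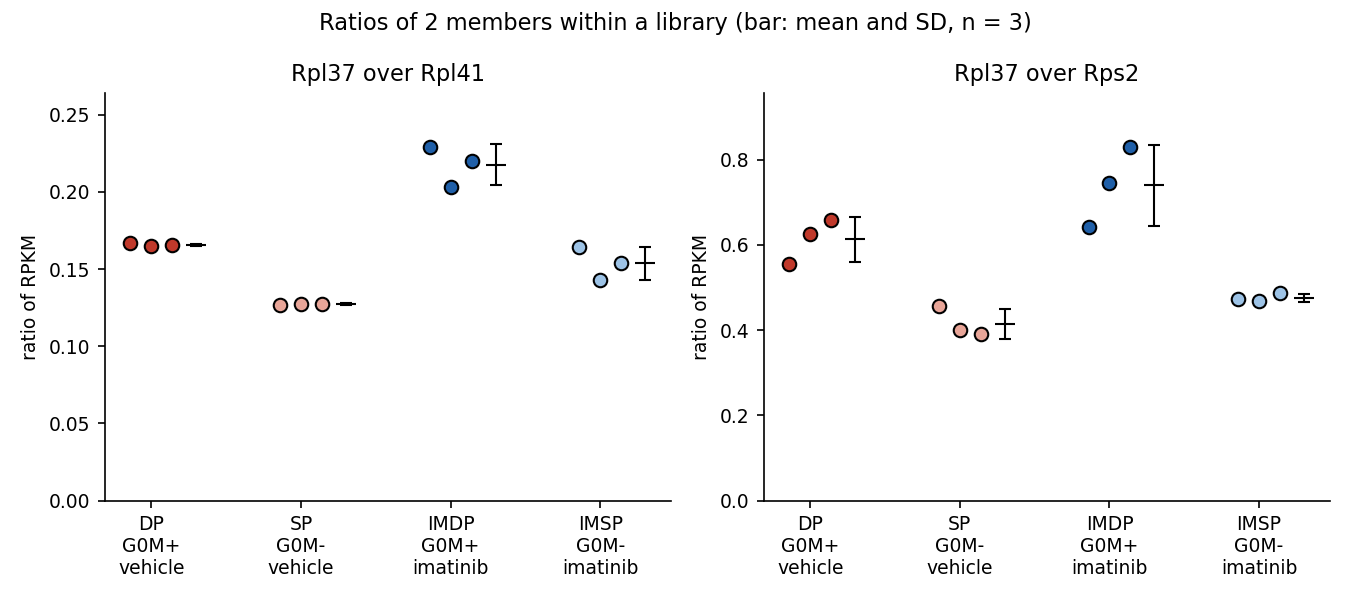
Ratio of the RPKM of Rpl37 to that of Rpl41 (left) and of Rps2 (right) in each of 12 libraries, with the mean and SD of 3 libraries beside the points. On the left the G0M+ libraries lie at 0.165 to 0.229 and the G0M- libraries at 0.127 to 0.164, and on the right at 0.556 to 0.831 and 0.391 to 0.486.

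To measure the response to imatinib in quiescent cells, IMDP was compared with DP. Rpl41 was the 1 member to pass, falling by 0.64 on the log2 scale (SE 0.12, limma adjusted p = 0.0468), against 0.338% of genes called lower and 0.0298% higher. At an unadjusted p under 0.05, 46 of 78 members were lower and none higher, against 17.7% and 2.73% of all genes. The median difference was -0.35, beside -0.17 over all genes, and all 78 fitted differences were below 0. In 44 of 78 members (56.4%) the IMDP libraries lay below all DP libraries, against 19.0% of genes tested, and in none above, against 4.58%. After scaling to the same summed RPKM the member median was -0.04, beside 0.12 over all genes, and no member was called (0.119% of genes higher, 0.0199% lower). At an unadjusted p under 0.05 none was then higher and 6 lower, against 14.7% and 4.39% of genes, and 11 members lay below without overlap (14.1%, against 5.22%) and 3 above (3.85%, against 19.2%). The call of Rpl41 was lost under that scaling (adjusted p = 0.0712). At an unadjusted p under 0.05, scaling to the same median gave 19 members lower and none higher, against 9.87% and 7.08% of genes. With limma-voom 22 were lower and none higher, against 8.82% and 8.47%. As deposited 4 members fell without IMDP replicate 1 (1.86% of genes called lower) and 1 without SP replicate 3 (0.159%), and 0 were called when any other single library was left out. Imatinib and vehicle libraries also differ in sequencing sample number, 1 to 6 and 7 to 12, so the drug and that order cannot be told apart.

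In cycling cells, IMSP against SP, no member passed, with 0% of genes called in either direction. The median difference was 0.06, beside 0.08 over all genes, and at an unadjusted p under 0.05 none was higher and 1 lower, against 6.10% and 2.29% of genes. The sign of that median depended on the scale. It was 0.007 beside 0.03 over all genes after scaling to the same summed RPKM, -0.028 beside -0.0014 after scaling to the same median, and -0.029 beside -0.0017 with limma-voom. As deposited, with 1 library left out, it ran from -0.033 (without IMSP replicate 1) to 0.11. The test of whether the G0M+ minus G0M- difference changed with imatinib (interaction) called no member either, among 0% of genes. Its member median was -0.40 as deposited, beside -0.25 over all genes, and -0.04 beside 0.10 after scaling to the same summed RPKM. At an unadjusted p under 0.05, 33 members were below 0 and none above as deposited, against 9.12% and 0.179% of genes, and 0 in either direction after that scaling, against 1.21% and 2.74%. With the library-number block 67 were below 0 and none above as deposited, against 21.2% and 0.774% of genes. After scaling with that block 0 were in either direction, against 3.53% and 8.91%. With limma-voom 0 members were called in both comparisons, with 2 below 0 and none above at an unadjusted p under 0.05 in each, against 4.31% and 4.18% of genes (IMSP against SP) and 2.15% and 1.76% (interaction). These contrasts share groups, so their values are not independent of those above.

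Large and small subunit genes had close medians. The large subunit held 56.2% to 57.6% of the members' summed RPKM in every library. The large minus small difference in median log2 change was -0.02 between DP and SP, -0.05 between IMDP and IMSP, -0.01 between IMDP and DP, and -0.02 between IMSP and SP. The large minus small difference in median log2 level had an SD of 0.11 between single libraries of a group. That is a spread of levels and not of these changes, so it does not test them. For IMDP against IMSP the medians were -0.34 and -0.28. Members with and without the start-site tract had medians of -0.32 and -0.30 there, and members with over 50% and at most 50% of words shared with other genes both had -0.32.

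Ribosomal proteins outside the name rule had levels in the range of the members. Rps3a1 (329 to 465 RPKM), Rack1 (239 to 373), Fau (99.2 to 168) and Rpl36al (45.9 to 116) code for ribosomal components, Fau as a fusion with a ubiquitin-like protein. In IMDP against IMSP Rps3a1, Fau and Rpl36al fell by 0.31, 0.45 and 0.67 on the log2 scale, and after scaling to the same summed RPKM none of them was called and Rps3a1 turned to 0.12. Rack1, Rpl22l1 and Rpl7l1 had differences of -0.29, -0.33 and -0.44, which did not pass.

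Other genes of translation were taken from lists drawn up with earlier results known. In IMDP against IMSP 23 of 34 initiation factors (67.6%) fell and none rose, with a median of -0.60. Of all genes 23.3% were called lower and 2.37% higher. Eif2b1, a subunit of the exchange factor for eIF2, had 3.27 to 4.24 RPKM in IMDP and 7.26 to 8.23 in IMSP, and fell by 1.08 (SE 0.14, limma adjusted p = 0.000407). Eif2s2, the beta subunit of eIF2, had 7.97 to 11.1 and 16.6 to 20.7 RPKM and fell by 0.95 (SE 0.15, adjusted p = 0.00181), and Eif3l fell by 0.80 (SE 0.13, adjusted p = 0.00252). All 3 remained lower after scaling to the same summed RPKM, with adjusted p of 0.0183, 0.0178 and 0.0277. There 8 initiation factors (23.5%) fell and 1 rose (6.14% of genes called lower, 9.58% higher). With the library-number block in addition 14 fell and 2 rose (12.8% of genes called lower, 27.4% higher).

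Of 24 ribosome maturation genes 10 (41.7%) fell, against 23.3% of all genes. The smallest adjusted p was that of Emg1, an rRNA methyltransferase (-0.96 ± 0.19, adjusted p = 0.00592), Eif6, the anti-association factor of the large subunit (-0.90 ± 0.18, adjusted p = 0.00632), and Bop1, a processing factor of the large subunit (-0.90 ± 0.19, adjusted p = 0.00705). After scaling 2 of 24 (8.33%) fell, near the 6.14% of all genes, and 7 (29.2%, against 12.8%) with the library-number block in addition. Among 15 ribosome quality control genes 8 (53.3%) fell, with the smallest adjusted p for the ubiquitin ligase Ltn1 (-0.78 ± 0.13, adjusted p = 0.00280), Zfp598, which senses collided ribosomes (-0.48 ± 0.13, adjusted p = 0.0197), and the recycling factor Abce1 (-0.65 ± 0.18, adjusted p = 0.0232). After scaling 1 (6.67%) fell, near the 6.14% of all genes. With that block in addition 2 fell and 4 rose (12.8% of genes called lower, 27.4% higher). Among 18 tested TOP translation factors and snoRNA host genes 7 (38.9%) fell, with the smallest adjusted p for Eif3l, Eef1d, an elongation factor subunit (-0.86 ± 0.19, adjusted p = 0.00937), and Npm1, a nucleolar chaperone of ribosome assembly (-0.92 ± 0.21, adjusted p = 0.0103). After scaling 3 (16.7%) fell, against 6.14% of all genes. The block alone gave 13 falls among these 18 (35.9% of genes called lower).

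Of 19 genes of mTORC1 and LARP1 control 3 (15.8%) fell in IMDP against IMSP, beside 23.3% of all genes, namely Tbc1d7, a subunit of the TSC complex (-0.74 ± 0.18, adjusted p = 0.0131), Rheb, the activator of mTORC1 (-0.60 ± 0.15, adjusted p = 0.0158), and Larp4, a poly(A)-binding protein (-0.59 ± 0.18, adjusted p = 0.0313). After scaling none of the 19 fell and 1 rose, beside 9.58% of all genes. The library-number block gave 6 falls and 3 rises as deposited, and 1 fall and 6 rises after scaling. Averaged over treatments Sesn3, a stress-induced inhibitor of mTORC1, rose by 0.75 (SE 0.23, adjusted p = 0.0356), a call lost without DP replicate 2 or 3, SP replicate 2, IMDP replicate 1 or 2, or IMSP replicate 1 or 3. Tbc1d7 (-0.45 ± 0.13, adjusted p = 0.0225) and Rheb (-0.33 ± 0.11, adjusted p = 0.0413) fell there, and neither passed after scaling to the same summed RPKM. In the 12 fits with 1 library left out, the call was lost in 5 for Tbc1d7 and in 9 for Rheb.

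The 74 tested Mrpl and Mrps genes encode proteins of the separate ribosome of that organelle. In IMDP against IMSP 48 of 74 (64.9%) fell and none rose, against 23.3% of all genes called lower and 2.37% higher. Their median was -0.77, beside -0.32 for the cytosolic members and -0.25 over all genes. Mrpl28 had 8.84 to 12.9 RPKM in IMDP and 19.7 to 22.6 in IMSP, and fell by 1.04 (SE 0.18, limma adjusted p = 0.00271). After scaling to the same summed RPKM the mitochondrial median was -0.35, while the cytosolic median was 0.11. There 9 mitochondrial genes (12.2%) fell and none rose, against 6.14% of all genes called lower and 9.58% higher. With the library-number block in addition 30 (40.5%) fell, against 12.8%. In DP against SP no gene of either family passed as deposited, with medians of -0.32 and 0.07. With the library-number block 8 mitochondrial genes fell there (5.56% of genes called lower), beside the 1 cytosolic member that rose. These medians are descriptions of lists chosen with results known.

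**Figure D5:**
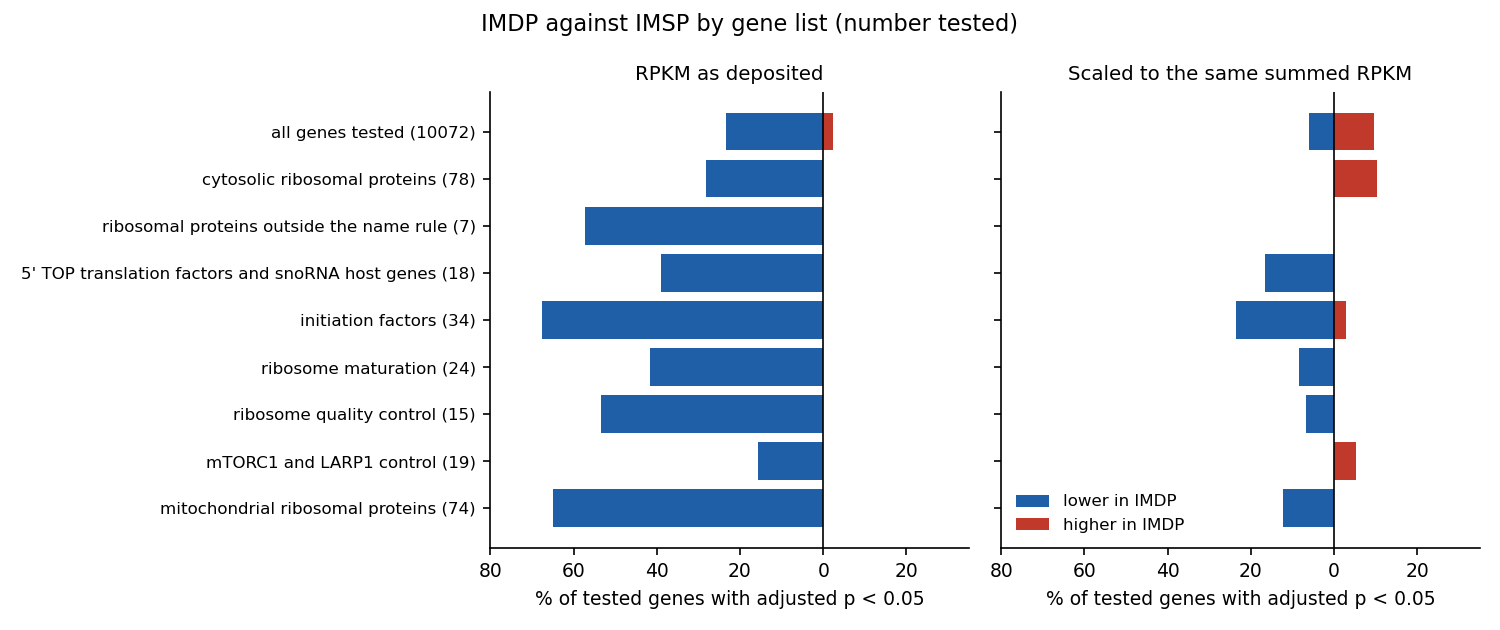
Percentage of each list's tested genes (number in brackets) called lower (blue, left of 0) and higher (red, right of 0) in IMDP against IMSP at a limma adjusted p under 0.05, as deposited and after scaling to the same summed RPKM. As deposited 28.2% of the cytosolic ribosomal protein genes are lower, against 23.3% of all genes, and after scaling none is.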

How the data were processed

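RNA-seq was made from 12 libraries of 100 sorted cells with not-so-random primers, Klenow second-strand synthesis and Nextera XT. Per the labels and the study's methods the authors mapped reads to GRCm38 (mm10) in CLC Genomics Workbench, and deposited 1 file of RPKM per feature and library. The study's reporting summary names other mapping and counting tools, and the submitters' processing notes list edgeR. How reads mapping to several places were treated is not given in the sources used here. Each RPKM is relative to the reads of its own library, so a change in the mapped share moves all genes.

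From the RPKM, gene values were summed over numbered copies. Library totals and whole reads were recovered from the RPKM steps, with a tolerance of 0.01 reads, for all 17735 features above 0. The main test was limma 3.58.1 (R 4.3.3) on log2(RPKM + 0.1), with a variance trend, over the 10072 genes that reached 1 RPKM in 3 or more libraries, 4 group means and Benjamini-Hochberg adjustment over all of them, at 0.05. A fold change on this scale understates that of low genes. Depth was 11367631 to 20573779 reads a library, and 67 of 78 tested members had over 500 reads in every library. Start-site sequences are RefSeq's (GRCm38.p6), and positions, transcript sequences and gene types GENCODE M21's. Alternatives were scaling to the same summed RPKM, member RPKM or median, limma-voom with TMM coded from its published form, other filters and pseudocounts, blocks, and each library left out. Recovery and fits were tested on simulated data.

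The members and lists were chosen with earlier results of these data known. Genes were named by rule: up to 3 largest rises and falls past the threshold per contrast, the 3 highest and 3 lowest members, members with textbook roles, paralogues, ribosomal proteins outside the name rule, and up to 3 of the smallest adjusted p in each list. Neighbouring sequencing sample numbers (1 and 2, 3 and 4, and so on) hold 1 G0M+ and 1 G0M- library of the same treatment. Deviations from the group means correlated within all 6 such pairs, with r from 0.43 to 0.65 over the genes tested (-0.25 to 0.62 over the members alone). Blocked values are therefore given beside many of the counts, though not beside each. Some genes are not reported here by name.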

Additional observations from a re-analysis of the deposited data

How the results depend on the processing

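Scaling turned the direction of the members' calls for IMDP against IMSP and for the population average. The median of all genes turned as well, from -0.25 to 0.16 and from -0.13 to 0.11, after scaling to the same summed RPKM. For IMDP against IMSP, 22 members were called as deposited, 3 with every gene above 0 in the test, 3 with only the 2 groups in the fit, 0 after scaling to the same median or with limma-voom, 51 with the library-number block, and in the opposite direction 8 after scaling to the same summed RPKM, 3 after scaling to the same summed member RPKM, 16 (14 higher) with summed RPKM and the library-number block and 5 with summed RPKM and the replicate block. For the population average, 5 became 0 with every gene above 0, 11 under a stricter filter (5 RPKM in 6 or more libraries), 12 with the replicate block and 23 with the library-number block, and turned to 23 (summed RPKM), 3 (median), 5 (limma-voom, 4 higher), 11 (summed member RPKM, 7 higher), 35 (summed RPKM with the library-number block, 33 higher) and 19 (summed RPKM with the replicate block). For IMDP against DP, 1 became 0 with a pseudocount of 0.01, with every gene above 0, with only the 2 groups and under every scaling and limma-voom, 2 with the replicate block and 6 with that filter. For DP against SP, 0 became 1 under summed RPKM, summed member RPKM, the library-number block or summed RPKM with the replicate block, and 10 under summed RPKM with the library-number block. Each setting also changes how many of all genes are called. Summed member RPKM called 5.07% of genes higher for IMDP against IMSP, 7.44% for the population average and 0.248% for DP against SP. For the population average, the same median called 11.1% of genes higher and limma-voom 12.3%. Shares of all genes are not given here for the filters, pseudocounts, fits of 2 groups or replicate blocks. Those counts are not read as gains or losses of the members.

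The member median for IMDP against IMSP moved from -0.32 to 0.11 (summed RPKM, with or without a block), -0.040 (median or limma-voom) and 0.028 (summed member RPKM), and for IMDP against DP from -0.35 to -0.043 (summed RPKM, with or without the replicate block), -0.19 (median or limma-voom) and 0.016 (summed member RPKM). The members' mean share was 15.3%, 18.3% without the 100 most abundant other genes and 4.40% by reads, and the G0M+ minus G0M- difference 1.12 and, by reads, 0.13 percentage points. Rps3a1 turned from -0.31 to 0.12 under summed RPKM.

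Leaving out 1 library at a time gave 1 to 43 calls for IMDP against IMSP (1 to 8 under summed RPKM), 0 to 14 for the population average (12 to 29), 0 to 4 for IMDP against DP (0 under summed RPKM) and 0 for DP against SP (1 to 2), with medians from -0.39 to -0.24 (0.063 to 0.12) for IMDP against IMSP and -0.42 to -0.28 (-0.058 to -0.031) for IMDP against DP.

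Replicate numbers were not taken to pair the samples: same-numbered DP and SP libraries had r of -0.30 to -0.10, while IMDP and IMSP had 0.43 to 0.65, where the numbers coincide with neighbouring library numbers. The replicate block gave 32 calls for IMDP against IMSP, with the share of all genes not given here. The alternatives chosen after seeing the data were the member RPKM scaling, summed RPKM combined with a block or a left-out library, and the shares without abundant genes or by reads. Among alternatives for counts of called members, 34 turned in direction, and 45 were lower and 28 higher by over 1.5 times. Among those for medians, subunit differences and shares, 38 moved by at least the spread between libraries. The other 403 stayed within these limits, counts of 0 in both settings among them. Over single named genes 1 turned, 281 lost their call and 854 kept direction and call. The cause was not tested. Reads limit Rpl32l (2 to 23 a library), Rpl3l and Rpl39l.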
